A study of Mus musculus with 7 samples.

Results

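Messenger RNAs of 37 nuclear genes of the last steps of oxidative phosphorylation were examined in mouse retinal pigment epithelium (RPE): 9 subunits of complex III, cytochrome c (Cycs), 12 subunits of complex IV and 15 subunits of ATP synthase. They were taken by name, not by a filter on measured values, from the 52740 Ensembl identifiers of the deposited table. Earlier results of these data were known when the genes were chosen. All 37 were found and passed the filter on low counts. The libraries came from 4 WT mice (F1, F2, F3 and M1) and 3 LC3b-/- mice (F1, F3 and M), with 1 library per mouse, F and M giving the sex, every mouse 24 months old and none given a treatment in the labels. WT mice were C57BL6/J and LC3b-/- mice were of the strain B6;129P2-Map1Lc3btm1Mrab/J, in which Map1lc3b, the gene of the autophagy protein LC3b, is disrupted in the whole body. The labels write the knockout genotype as LCb-/-. Strain background, and the number in the mouse names, cannot be told apart from the targeted gene. That number is never shared between genotypes. All WT mice have the same number, as do LC3b-/- F1 and F3, and the labels do not say what it stands for. RPE was detached enzymatically after the front of the eye and the lens were taken away, and polyadenylated RNA was sequenced with strand kept. Since the samples are bulk tissue, fewer cells of a type and less RNA per cell cannot be told apart.

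Complex III passes electrons from ubiquinol to cytochrome c, a small soluble carrier, and complex IV passes them on to oxygen. Both pump protons across the inner mitochondrial membrane, and ATP synthase lets the protons back to make ATP, turning a ring of c subunits below a catalytic head. Cytochrome b of complex III, the catalytic core of complex IV and part of the proton channel of ATP synthase are encoded by mitochondrial DNA. The genes described here supply further subunits, but not all of them, since ATP synthase companions and tissue isoforms were listed apart. RPE relies on its mitochondria, which oxidize fatty acids from ingested outer segments and make ketone bodies, and passes glucose on to the photoreceptors.

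Deposited counts summed to between 24495952 and 35616134 per library, and edgeR tested 16990 genes. Map1lc3b had 130.1, 117, 104 and 110.1 CPM in WT (F1, F2, F3, M1) and 6.77, 8.33 and 6.76 CPM in LC3b-/- (F1, F3, M), where CPM is the count scaled by library size and TMM factor (log2 fold change -3.98 ± 0.15, edgeR quasi-likelihood test, adjusted p = 0.000186). The 10 RPE markers were detected in every library, as the tissue label gives. Their summed level was 30029 to 47217 CPM in WT and 13331 to 28094 CPM in LC3b-/-, with a negative log2 fold change for 9 of the 10. The summed level of 10 markers of stratified ocular surface epithelium was 10.2 to 2476 CPM in WT and 3478 to 25313 CPM in LC3b-/-, with a positive log2 fold change for all 10, and that of 10 endothelial markers was 273 to 921 CPM against 1099 to 1193 CPM and again positive for all 10. Photoreceptor markers overlapped between the groups (275 to 21150 CPM against 97.0 to 7205 CPM). So did markers of macrophages and microglia (405 to 592 against 348 to 581.4 CPM) and of skeletal muscle (14.5 to 45.7 against 18.3 to 51.0 CPM). No marker was at 0 in every library. The RPE, ocular surface and endothelial sums did not overlap between genotypes, and their part in the results below was not tested.

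Sequences show what the genes share and where they differ. The c subunit of ATP synthase is encoded by 3 genes, and from the 3′ end of their coding sequences the longest stretch with the same translation runs over 78 codons. The 3 stretches are printed because they show why reads of these genes can be assigned apart although the protein is the same. Capitals mark the 63 of 234 positions at which the 3 genes are not all the same, and pairs of genes are identical at 84.6% (Atp5mc1 and Atp5mc2), 78.6% (Atp5mc1 and Atp5mc3) and 77.4% (Atp5mc2 and Atp5mc3) of the positions. Coordinates are those of each whole gene on GRCm39, all 3 on the minus strand, and the printed stretch is spliced coding sequence.
Atp5mc1 (chr11:95959678-95966757): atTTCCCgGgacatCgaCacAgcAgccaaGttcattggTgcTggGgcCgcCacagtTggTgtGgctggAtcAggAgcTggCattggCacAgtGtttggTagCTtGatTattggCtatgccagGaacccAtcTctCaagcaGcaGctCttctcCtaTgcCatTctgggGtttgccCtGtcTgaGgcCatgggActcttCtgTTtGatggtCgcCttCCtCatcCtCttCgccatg
Atp5mc2 (chr15:102571295-102580787): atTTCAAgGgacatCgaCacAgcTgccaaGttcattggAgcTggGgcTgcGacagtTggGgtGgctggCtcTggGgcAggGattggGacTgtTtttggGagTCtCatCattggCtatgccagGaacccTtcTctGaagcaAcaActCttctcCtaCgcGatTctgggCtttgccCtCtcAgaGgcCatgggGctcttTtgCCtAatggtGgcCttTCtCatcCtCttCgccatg
Atp5mc3 (chr2:73738779-73741933): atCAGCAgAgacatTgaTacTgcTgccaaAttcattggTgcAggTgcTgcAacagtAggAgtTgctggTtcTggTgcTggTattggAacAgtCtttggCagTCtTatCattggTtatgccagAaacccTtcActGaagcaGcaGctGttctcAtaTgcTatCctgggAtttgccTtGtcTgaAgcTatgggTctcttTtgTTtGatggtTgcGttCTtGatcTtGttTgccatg

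Promoter windows of RefSeq (GRCm38.p6), from 250 bases before to 50 after the start, were found for 30 of the 37 genes. GCATGCGC, bound by nuclear respiratory factor 1 (NRF1), stood on either strand in 7 of the 30 (23.3%), against 3.05% of the 27025 genes with a window. CCGGAAG, bound by GABP and other ETS factors, stood in 10 (33.3%, against 9.93%), and AAGATGGC, bound by YY1, in 3 (10%, against 3.19%). CCAAT stood in 15 (50%, against 41.1%) and TATAAA in 1, Atp5mg (3.3%, against 15.7%). The 150 bases before the start of 3 genes are printed, placed on GRCm39 by exact match, with the listed motifs in capitals, because 2 of them carry the same run of letters, NRF1 motifs on both strands that overlap, and had the largest and the smallest difference between genotypes among the ATP synthase genes. The NRF1 motif of Uqcr11 crosses the start, so only its first 4 bases are shown.
Atp5me (chr5:108582266-108582415, minus strand): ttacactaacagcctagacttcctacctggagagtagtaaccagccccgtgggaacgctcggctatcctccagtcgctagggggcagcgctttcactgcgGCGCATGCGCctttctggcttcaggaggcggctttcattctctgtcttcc
Atp5mc2 (chr15:102579483-102579632, minus strand): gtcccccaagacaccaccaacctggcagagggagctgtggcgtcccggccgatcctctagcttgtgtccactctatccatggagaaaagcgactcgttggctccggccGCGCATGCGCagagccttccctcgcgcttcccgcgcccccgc
Uqcr11 (chr10:80242656-80242805, minus strand): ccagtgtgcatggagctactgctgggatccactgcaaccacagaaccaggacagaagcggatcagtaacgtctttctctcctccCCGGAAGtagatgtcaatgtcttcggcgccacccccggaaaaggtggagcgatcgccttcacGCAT

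Most of the 37 mRNAs were somewhat less abundant in LC3b-/- RPE. None was called differentially expressed by edgeR, and 1 was by DESeq2. Log2 fold changes of LC3b-/- over WT were negative for 34 of 37 genes, against 48.8% of all genes tested, with a median of -0.26 (a difference of -16.5%), against 0.01 over all genes. With calls set at a 1.5-fold change or more and an edgeR adjusted p under 0.05, 0 of 37 were called, against 0.235% of all genes (40 of 16990). Calls were so few over all genes that 0 of 37 does not set these genes apart. At an unadjusted edgeR p under 0.05, 10 genes were lower, against 10.6% of all genes, and 0 were higher, against 13.5%. Among the 2858 genes at least as abundant as the least abundant of the 37, 19.1% were lower at that threshold. In 12 genes all LC3b-/- libraries lay below all WT libraries, against 10.3% of all genes, and in 0 all lay above, against 12% of all genes. DESeq2 called 1 of the 37, Atp5me, against 9.8% of genes with an adjusted p. At a DESeq2 adjusted p under 0.05 alone, Atp5me and Cox8a were lower, against 3.9% of genes, and 0 were higher, against 7.01%. The count of 10 varied with the library left out: it was 3 without LC3b-/- F3, 5 without WT M1, 6 without WT F3 and 16 without WT F1. It was 8 without WT F2, 9 without LC3b-/- F1 and 8 without LC3b-/- M. Shares of all genes at that p are not given for these fits. Genes called over all genes also changed, from 40 to 11 without LC3b-/- F3.

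**Figure D1:**
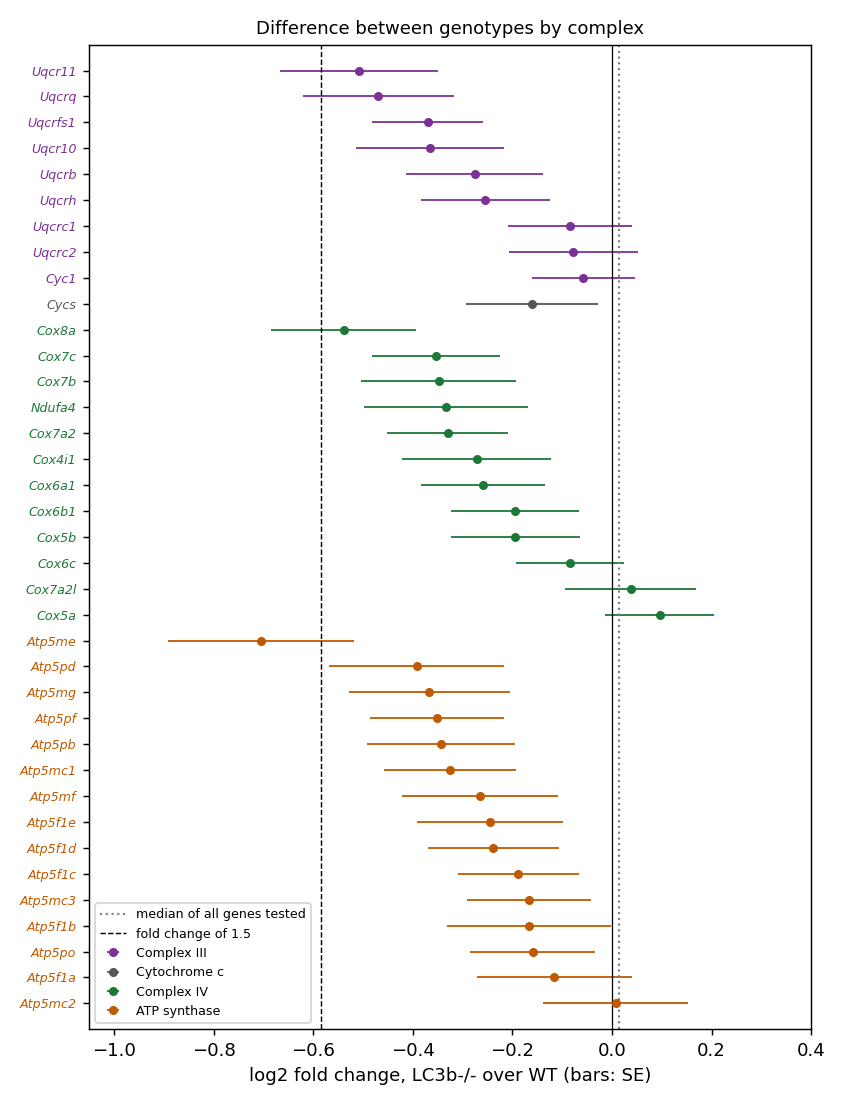
Log2 fold change of LC3b-/- over WT (x axis) for each of the 37 genes, coloured by complex, with bars giving the standard error, a dotted line at the median of all genes tested and a dashed line at a fold change of 1.5. Points lie below 0 for 34 genes, and Atp5me alone lies beyond the dashed line.

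The 3 complexes had similar medians. The median log2 fold change was -0.28 for complex III (9 of 9 genes negative), -0.27 for complex IV (10 of 12) and -0.24 for ATP synthase (14 of 15). At an unadjusted edgeR p under 0.05, 4 of 9, 3 of 12 and 3 of 15 genes were lower, against 10.6% of all genes and 19.1% of genes of like or higher level. Averaged over its genes and set against the WT mean, complex III lay at -0.16, -0.06, 0.03 and 0.19 log2 units in WT (F1, F2, F3, M1) and at -0.20, -0.42 and -0.20 in LC3b-/- (F1, F3, M). Complex IV lay at -0.12, -0.03, 0.00 and 0.14 in WT, and at -0.12, -0.39 and -0.18 in LC3b-/-. ATP synthase lay at -0.17, -0.06, 0.02 and 0.21 in WT, and at -0.20, -0.45 and -0.15 in LC3b-/-. LC3b-/- F3 was the lowest library and WT M1 the highest for all 3 complexes, and WT F1 lay close to LC3b-/- F1 and M. LC3b-/- F3 was the lowest of all libraries in 33 of the 37 genes, and WT M1 the highest in 33. These ranks use CPM scaled by TMM factors, which were 1.12 for LC3b-/- F3 and 0.93 for LC3b-/- F1. As a share of all counts, WT M1 was still highest, but LC3b-/- F1 was lowest for all 3 complexes. Shares in LC3b-/- F1 and F3 were 0.107% and 0.112% for complex III, 0.182% and 0.183% for complex IV, and 0.320% and 0.341% for ATP synthase. The mean log2 level of ATP synthase genes exceeded that of complex III genes by 0.48 to 0.51 in WT and by 0.46 to 0.54 in LC3b-/-, so the balance between these complexes overlapped between genotypes. The same held for ATP synthase over complex IV (0.29 to 0.41 and 0.27 to 0.38) and complex IV over complex III (0.10 to 0.19 and 0.16 to 0.23).

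**Figure D2:**
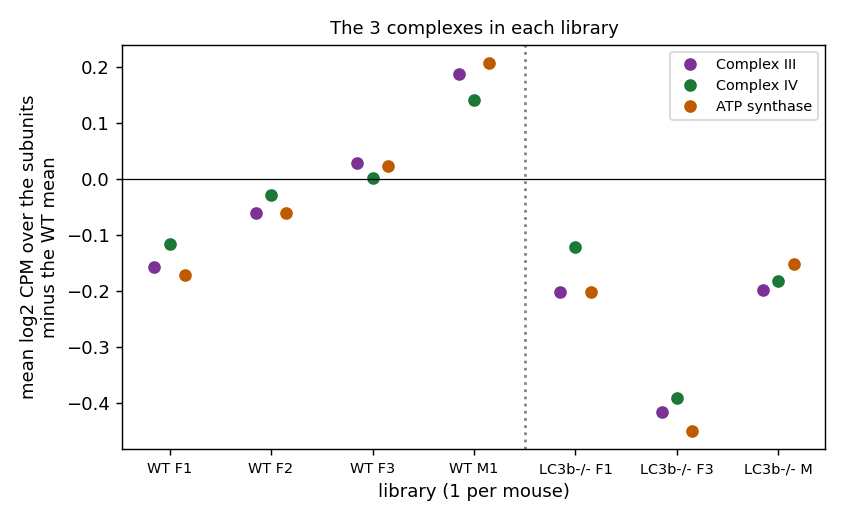
Mean log2 CPM over the genes of each complex, minus its WT mean (y axis), in each library (x axis), with 1 point per complex and WT left of the dotted line. All 3 complexes are highest in WT M1 and lowest in LC3b-/- F3, while complex IV is lower and ATP synthase higher in LC3b-/- M than in LC3b-/- F1.

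**Figure D3:**
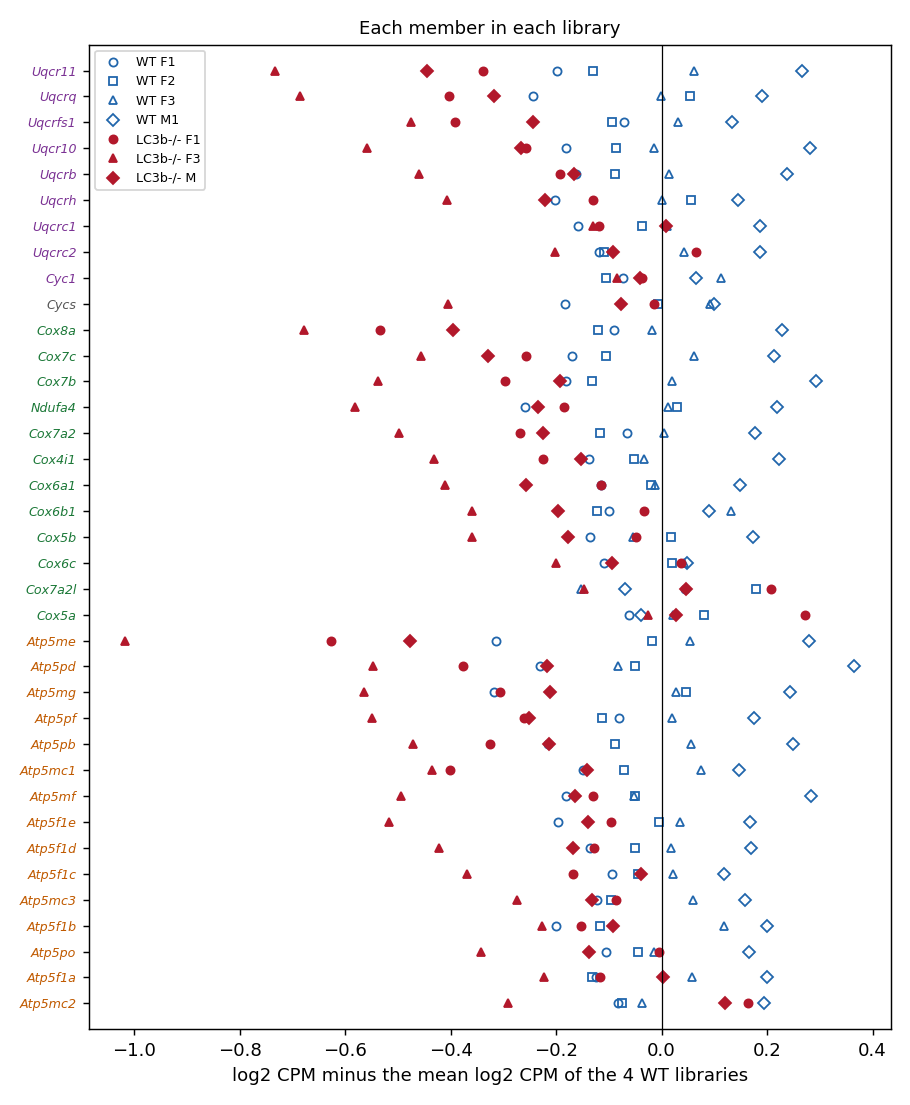
Log2 CPM of each gene in each library minus the mean of the 4 WT libraries (x axis), with open blue symbols for WT and filled red symbols for LC3b-/-. The filled triangles of LC3b-/- F3 lie furthest left in 33 of 37 genes.

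In complex III, the smallest p-values belonged to Uqcrfs1, the Rieske iron-sulfur protein that takes electrons from ubiquinol, and to the small subunits Uqcr11 and Uqcrq. Uqcrfs1 (chr13:30723448-30729345) had 106, 104, 114 and 122 CPM in WT (F1, F2, F3, M1) and 84.8, 80.1 and 94.1 CPM in LC3b-/- (F1, F3, M). All LC3b-/- libraries lay below all WT libraries (log2 fold change -0.37 ± 0.11, edgeR adjusted p = 0.122; exact permutation p = 0.0286, two-sided, the smallest that 7 libraries allow). Uqcr11 (chr10:80236542-80242676) had 118, 124, 142 and 163 CPM in WT (F1, F2, F3, M1) and 108, 81.7 and 99.8 CPM in LC3b-/- (F1, F3, M). The groups did not overlap here either (log2 fold change -0.51 ± 0.16, edgeR adjusted p = 0.129). Uqcrq (chr11:53318749-53322047), a subunit beside the cytochrome b core, had 167, 206, 198 and 226 CPM in WT (F1, F2, F3, M1) and 149.7, 123 and 159 CPM in LC3b-/- (F1, F3, M). Again the groups did not overlap, with WT F1 the lowest of WT (log2 fold change -0.47 ± 0.15, edgeR adjusted p = 0.136). The large core proteins differed less, with log2 fold changes of -0.08 ± 0.12 for Uqcrc1 and -0.08 ± 0.13 for Uqcrc2. Cyc1, the cytochrome c1 that hands electrons to cytochrome c, had -0.06 ± 0.10. Of the other small subunits, Uqcr10 had -0.36 ± 0.15, Uqcrb -0.28 ± 0.14 and Uqcrh, the hinge protein, -0.25 ± 0.13.

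Cytochrome c itself (Cycs, chr6:50539541-50543557) had 56.2, 63.6, 68.0 and 68.4 CPM in WT (F1, F2, F3, M1) and 63.2, 48.2 and 60.5 CPM in LC3b-/- (F1, F3, M). The groups overlapped, and LC3b-/- F3 was the lowest (log2 fold change -0.16 ± 0.13, edgeR adjusted p = 0.488). Gm10053 on chromosome 19 matches its coding sequence at 100% of 315 bases and held counts equal to 38.8% of those of Cycs, so the level of Cycs is uncertain. With the counts of near-identical copies added, the log2 fold change was -0.15.

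In complex IV, the smallest p-values belonged to Cox8a, Cox7c and Cox7a2, small subunits of the membrane part. Cox8a (chr19:7192515-7194997) had 338, 331, 355 and 421 CPM in WT (F1, F2, F3, M1) and 248, 224 and 273 CPM in LC3b-/- (F1, F3, M). All LC3b-/- libraries lay clearly below all WT libraries (log2 fold change -0.54 ± 0.15, edgeR adjusted p = 0.106, DESeq2 adjusted p = 0.0141). Cox7c (chr13:86189246-86195023) had 109, 114, 128 and 142 CPM in WT (F1, F2, F3, M1) and 102, 89.1 and 97.3 CPM in LC3b-/- (F1, F3, M). The groups did not overlap (log2 fold change -0.35 ± 0.13, edgeR adjusted p = 0.163). The pseudogene Gm12338 held counts equal to 15.7% of those of Cox7c, and with copies added the log2 fold change was -0.35. Cox7a2 (chr9:79653049-79667162) had 94.9, 91.6, 99.6 and 112 CPM in WT (F1, F2, F3, M1) and 82.4, 70.3 and 84.9 CPM in LC3b-/- (F1, F3, M). The groups did not overlap (log2 fold change -0.33 ± 0.12, edgeR adjusted p = 0.164). Cox4i1 (chr8:121391505-121400950), the subunit through which ATP regulates the enzyme, lies 916.1 kb from Map1lc3b on chromosome 8. It had 431, 458, 464 and 554 CPM in WT (F1, F2, F3, M1) and 406, 352 and 427 CPM in LC3b-/- (F1, F3, M). LC3b-/- M lay just below WT F1, so the groups did not overlap, by a narrow margin (log2 fold change -0.27 ± 0.15, edgeR adjusted p = 0.308). Within 2 Mb on either side of Map1lc3b, 34 of 70 genes tested had a negative log2 fold change and the median was 0.05. Of the 70, 17 had an unadjusted edgeR p under 0.05 in either direction, against 10.6% lower and 13.5% higher of all genes. EdgeR called 1 of the 70, against 0.235% of all genes. Whether the position of Cox4i1 bears on its value was not tested.

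The other complex IV genes ranged more widely. Cox5a and Cox7a2l had log2 fold changes of 0.10 ± 0.11 and 0.04 ± 0.13, the only positive values outside ATP synthase. Cox5b, which binds zinc, had -0.19 ± 0.13, Cox6a1 -0.26 ± 0.12 and Cox6b1, on the side facing cytochrome c, -0.19 ± 0.13. Cox6c had -0.08 ± 0.11, Cox7b -0.35 ± 0.16 and Ndufa4, first assigned to complex I, -0.33 ± 0.16. None of these had an unadjusted edgeR p under 0.05.

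In ATP synthase, the smallest p-values belonged to Atp5me, Atp5pf and Atp5mc1. Atp5me (chr5:108581110-108582949), the e subunit that holds synthase dimers together at the cristae edges, had 108, 132, 139 and 163 CPM in WT (F1, F2, F3, M1) and 86.9, 66.3 and 96.3 CPM in LC3b-/- (F1, F3, M). All LC3b-/- libraries lay below all WT libraries, the gap between LC3b-/- M and WT F1 being the narrowest (log2 fold change -0.70 ± 0.19, edgeR adjusted p = 0.103, DESeq2 adjusted p = 0.0176; exact permutation p = 0.0571, two-sided). Atp5pf (chr16:84614160-84633154), a peripheral stalk subunit, had 192, 188, 206 and 229 CPM in WT (F1, F2, F3, M1) and 169, 139 and 171 CPM in LC3b-/- (F1, F3, M). The groups did not overlap (log2 fold change -0.35 ± 0.13, edgeR adjusted p = 0.175). The other membrane subunits had -0.37 ± 0.16 (Atp5mg) and -0.26 ± 0.16 (Atp5mf). The stalk subunits that keep the head from turning had -0.39 ± 0.18 (Atp5pd), -0.34 ± 0.15 (Atp5pb) and -0.16 ± 0.13 (Atp5po). The 5 genes of the catalytic head and its central stalk ranged from -0.12 ± 0.16 (Atp5f1a, the alpha subunit) to -0.24 ± 0.15 (Atp5f1e, the epsilon subunit). Between them lay Atp5f1b, the catalytic beta subunit (-0.17 ± 0.16), Atp5f1c (-0.19 ± 0.12) and Atp5f1d (-0.24 ± 0.13).

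The 3 genes for the c subunit, whose coding sequences are printed above, had different values. Atp5mc1 had 155, 163, 181 and 189.8 CPM in WT (F1, F2, F3, M1) and 129.8, 127 and 155 CPM in LC3b-/- (F1, F3, M). WT F1 and LC3b-/- M overlapped narrowly (log2 fold change -0.33 ± 0.13, edgeR adjusted p = 0.192). Atp5mc2 had 89.4, 89.9, 92.3 and 108 CPM in WT (F1, F2, F3, M1) and 106, 77.4 and 103 CPM in LC3b-/- (F1, F3, M). The groups overlapped, with LC3b-/- F3 below every WT library and WT M1 above every LC3b-/- library (log2 fold change 0.01 ± 0.15, edgeR adjusted p = 0.981), and the sign turned to -0.07 when the counts of its pseudogene Gm10175, equal to 13.0% of its own, were added. Atp5mc3 had 191, 195, 217 and 232 CPM in WT (F1, F2, F3, M1) and 196, 172 and 190.0 CPM in LC3b-/- (F1, F3, M). The groups overlapped between WT F1 and F2 and LC3b-/- F1 (log2 fold change -0.17 ± 0.12, edgeR adjusted p = 0.439). Whether the genotype difference itself differs among the 3 genes was not tested.

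Levels of the genes in WT, per kilobase of the canonical transcript, were highest for Cox8a (639.9 ± 73.1 CPM per kb, SD, n = 4), Cox4i1 (609 ± 68.2), Atp5f1b (518 ± 67.7) and Ndufa4 (511 ± 68.3), whose ranges of mean ± SD overlap. Cycs was lowest, at 20.2 ± 1.79 CPM per kb. The order depends on the length used: per kilobase of merged exons Cox8a was still highest (405 CPM per kb) but Cox7a2l lowest (9.14 CPM per kb), and Ndufa4 was at 31.2 CPM per kb. Per kilobase of coding sequence, a length chosen after seeing the data, Cox4i1 was highest (940.3 CPM per kb), Cox8a (791 CPM per kb) lay below Ndufa4 (819 CPM per kb), Uqcr11 (815 CPM per kb) and Uqcrq (809.7 CPM per kb), and Uqcrc2 was lowest (118 CPM per kb). Between WT mice the median coefficient of variation of the 37 genes was 10.1%, against 13.0% over the 2858 genes of like or higher level.

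Log2 fold changes varied with coding length. The 10 genes with fewer than 300 coding bases, among them Atp5me, Uqcr11 and Uqcrq, had a median log2 fold change of -0.35, the 13 with 300 to 450 bases had -0.26, the 9 with 450 to 900 bases had -0.27, and the 5 with 900 bases or more (Uqcrc1, Uqcrc2, Cyc1, Atp5f1a and Atp5f1b) had -0.08. Single genes departed from this order, Cox8a (456 bases) lying at -0.54 and Cox6c (228 bases) at -0.08. Across the 37 genes, coding length and log2 fold change had a Spearman correlation of 0.47, a description over genes that share the same 7 libraries. A trend of the same direction was seen outside the 37: the median was -0.13 over 270 other protein-coding genes with fewer than 300 bases, -0.16 over 691 with 300 to 450 bases, 0.01 over 5738 with 900 to 1800 bases and 0.17 over 1404 with 3600 or more. With each library's trend on coding length taken out, an alternative chosen after seeing the data, the median over the 37 was -0.17, against -0.04 over all genes, 33 of 37 were negative, and 5 rather than 10 were lower at an unadjusted edgeR p under 0.05. What causes the trend on length was not tested.

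**Figure D4:**
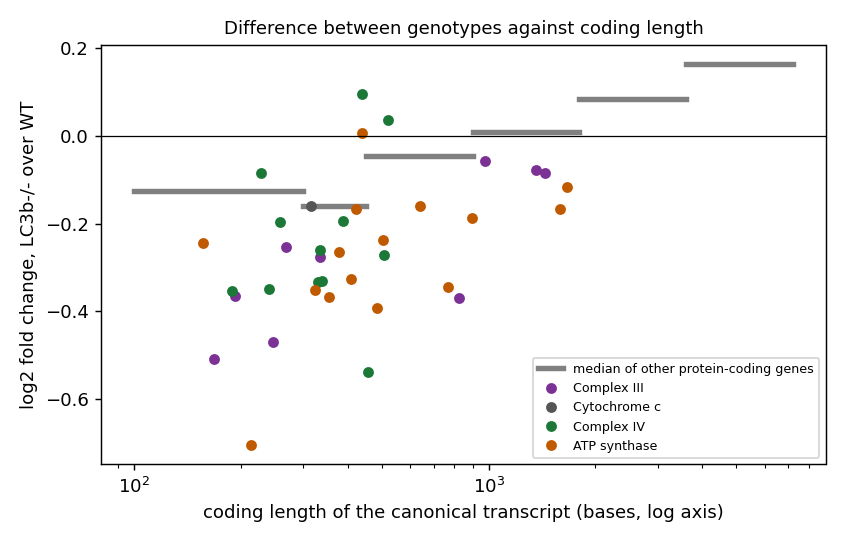
Log2 fold change of LC3b-/- over WT (y axis) against coding length in bases (log x axis) for the 37 genes, with grey bars at the median of the other protein-coding genes in each length class. The genes with 900 or more coding bases lie between -0.17 and -0.06, and the genes with fewer than 300 reach -0.70.

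Genes that work with these subunits were counted from lists, to be read against 48.8% of all genes with a negative log2 fold change, and 10.6% lower and 13.5% higher at an unadjusted edgeR p under 0.05. All 6 mitochondrially encoded partners had positive values, among them mt-Co1 (log2 fold change 0.24 ± 0.39), mt-Atp8 (0.13 ± 0.23) and mt-Atp6 (0.10 ± 0.29). Their median was 0.10, and 0 had an unadjusted edgeR p under 0.05. The signs rested on LC3b-/- F1. Without it, mt-Co3 was at -0.22, mt-Cytb at -0.16, mt-Co2 at -0.15, mt-Atp6 at -0.11 and mt-Atp8 at -0.08, and only mt-Co1 stayed positive (0.02). Of 9 complex III assembly factors, 9 were negative and 5 of them had an unadjusted p under 0.05, the smallest p-values belonging to Uqcc6 (-1.22 ± 0.22), Uqcc5 (-0.63 ± 0.15) and Uqcc3 (-0.63 ± 0.16), with edgeR adjusted p of 0.084 to 0.098. Of 26 complex IV assembly factors tested, 25 were negative and 12 passed that unadjusted threshold, led by Cox20 (-0.50 ± 0.11), Coa3 (-0.48 ± 0.13) and Surf1 (-0.46 ± 0.12). Of 5 ATP synthase assembly factors, 4 were negative and 1, Tmem242 (-0.36 ± 0.14), passed it, ahead of Tmem70 (-0.34 ± 0.18) and Fmc1 (-0.21 ± 0.14). Of 4 ATP synthase companions, Atp5mj (-0.70 ± 0.18), Dmac2l (-0.47 ± 0.16) and Atp5mk (-0.41 ± 0.17) were lower at that threshold, and the inhibitor Atp5if1 had 0.20 ± 0.16. Tissue isoforms and paralogs split evenly, 3 of the 6 tested being negative, with Cox6b2 at -0.40 ± 0.14, Ndufa4l2 at 2.60 ± 0.98 and Cox6a2 at 0.99 ± 0.54. Cox6a2 had few counts, 4 to 10 in WT and 11 to 22 in LC3b-/- (edgeR unadjusted p = 0.104). The value of Ndufa4l2 rested on LC3b-/- F3 (20.9 CPM, against 2.34 and 3.16 CPM in LC3b-/- F1 and M) and was 0.91 without it. Of 15 regulators of respiratory genes, 7 were negative, 2 were lower (Ppargc1a, -0.53 ± 0.20, and Tfb2m, -0.33 ± 0.13) and 2 higher (Pprc1, 0.97 ± 0.26, and Gabpb2, 0.27 ± 0.12) at that threshold. These shares are close to those of all genes. Of 36 complex I subunits, 35 were negative and 17 passed it, led by Ndufa12 (-0.99 ± 0.15), Ndufc1 (-0.59 ± 0.14) and Ndufb11 (-0.61 ± 0.16), with a median of -0.30. All 4 complex II subunits were negative, with Sdhc at -0.57 ± 0.11, Sdhd at -0.35 ± 0.15 and Sdha at -0.20 ± 0.12. None of these companion genes was called by edgeR. DESeq2 called 10 of them, against 9.8% of all genes with a DESeq2 adjusted p. As a share of all companion genes tested, 10 is close to that background. The background pools both directions: of the 16990 genes tested by edgeR, DESeq2 called 553 lower and 1178 higher. The called companions were Uqcc6, Uqcc5, Uqcc3 and Lyrm7 of the 9 complex III assembly factors, and Ndufa12, Ndufb11 and Ndufc1 of the 36 complex I subunits. The others were Sdhc of the 4 complex II subunits, Atp5mj of the 4 companions of ATP synthase and, as the only higher gene, Pprc1 of the 15 regulators. It called 0 of the 26 complex IV assembly factors tested and 0 of the 5 ATP synthase assembly factors. It also called 0 of the 6 mitochondrially encoded partners and 0 of the 6 tissue isoforms and paralogs tested.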

How the data were processed

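RNA was sequenced as 100-base single reads. The authors estimated counts with salmon 1.9.0 and summed them to genes with tximeta 1.16.1, and they deposited whole-number counts per gene, not scaled for library size, for GRCm39; 0 columns went unused. Symbols, coordinates and lengths came from GENCODE vM39. Groups follow the genotype labels. The genotypes were compared by edgeR 4.0.16 (R 4.3.3) with no covariate: after filterByExpr and TMM, its quasi-likelihood test gave p-values that were adjusted by Benjamini-Hochberg over 16990 genes, and a call needed a 1.5-fold change (0.585 on the log2 scale) with an adjusted p under 0.05. The SE is the unshrunk coefficient over the square root of F, and log2 CPM used a prior count of 2. Exact two-sided permutation tests enumerate all 35 labelings, so no p is below 0.0286. The p-values set the genotype difference against the spread between these libraries, 1 per mouse. The labels do not say whether mice that share a number in their names are independent. The code was tested on simulated data.

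The genes and lists were chosen with earlier results of these data known. All 37 genes could be named; full values are given for the 3 smallest p-values in each complex, called genes, genes of opposite sign to their complex with an unadjusted p under 0.05, Cycs, Cox4i1 and the c-subunit genes, and 3 genes of each companion list. Near-identical copies were sought with BLAST 2.17.0 (at least 95% identity over 100 bases); the query was first the whole transcript and was changed to the coding sequence after repeats matched unrelated genes. Of 215 listed symbols, 3 had no identifier.

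Alternatives were DESeq2 1.42.0, voom of limma 3.58.1, DESeq2 size factors, library size alone, other filters, sex as a covariate, females only, a replicate block, summed copies and each library left out; trends on coding length and GC content were added after seeing the data. DESeq2 was run with its independent filtering aimed at 0.05 (1810 genes called) and at its default of 0.1 (1831). The target of the authors' filtering is not given in the sources used here. The default is the one quoted. It was chosen after both counts were known, because it gives the count of an earlier analysis of these data. The authors published a lower count of genes at the same fold change and adjusted p thresholds. The call among the 37 genes, Atp5me, is the same under both filtering targets. Figures were drawn with matplotlib 3.10.9.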

Additional observations from a re-analysis of the deposited data

Results flagged for a closer look

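Of the 37 genes, 1 had a WT library far from the others: for Atp5mc2, WT M1 lay above the other 3 WT libraries by a gap of 0.836 of the whole WT range in log2 CPM, past Dixon's critical value for 4 samples. Chance flags about 1 in 20 groups, and 37 WT groups were looked at.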

How the results depend on the processing

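No setting of edgeR or voom called any of the 37 genes; DESeq2 called 1, Atp5me (log2 fold change -0.73), with filtering at either target, and called 1831 or 1810 genes in all against 40. Counts of all genes called were 124 with voom, 78 without a filter, 197 with sex as a covariate and 96 in females only. Genes of the 37 lower at an unadjusted p under 0.05 numbered 18 with voom, 16 with sex as a covariate, 5 in females only and 5 with the length trend removed, against 10. Leaving out 1 library gave 11 (without LC3b-/- F3) to 485 (without LC3b-/- M) genes called, and 3 to 16 of the 37 lower at that p. Groups did not overlap in 13 to 23 of the 37 (23 without WT F1, 19 without LC3b-/- F1). With a library left out, groups separate more easily in any gene, so these counts cannot be set against that from all libraries. Shares of all genes lower at that p, or without overlap, are not given for the alternatives. Medians with 1 library left out were -0.32 to -0.19 for all 37 and -0.33 to -0.21 for complex III. They were -0.32 to -0.20 for complex IV and -0.31 to -0.17 for ATP synthase. With the mouse name as a replicate block, 1 gene was called in all, and 11 of the 37 were lower; deviations of same-named mice correlated at 0.15 (F1), 0.24 (F3) and -0.17 (males), so the names are not taken to pair the mice. The median level per kb was 41.1 with merged exons and 464 with coding length, against 146 with the canonical transcript.

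The sign of Atp5mc2 turned to -0.019 with DESeq2 at either filtering target, -0.015 with its size factors, -0.058 with voom, -0.0075 without a filter, -0.0082 with sex as a covariate, -0.027 with the replicate block, -0.073 with copies summed and -0.071 with the GC trend removed; leaving out 1 library gave -0.077 to 0.12. Cox7a2l turned to -0.029 with the GC trend removed and ran from -0.054 to 0.10 with 1 library left out, Cox5a ran from -0.0028 to 0.14, and Cox6c turned to 0.077 with the length trend removed. The causes were not tested. With 3 and 4 mice, differences of the size seen here did not pass adjustment in edgeR.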
